A study of Mus musculus with 8 samples.

Results

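The 41 genes described here encode enzymes, membrane proteins and proton pump subunits of the lysosome, the proteins that build autophagosomes, and the transcription factors TFEB and TFE3. They were listed by name, with earlier results of these data known, and each was read from the array probes whose RefSeq accession maps to its symbol. The 41 genes had 52 probes, and 39 of them were among the 13539 genes tested. RNA came from primary spheres, which are clusters of cells grown from the dissociated superior mesenteric ganglion, a sympathetic ganglion of the abdomen. All animals were 3 weeks old, of the strain background 129+Ter/SvJcl and hemizygous for TH-MYCN (TH-MYCN+/-), a transgene in which the tyrosine hydroxylase promoter drives human MYCN in catecholamine-producing cells and which gives rise to neuroblastoma. The cells of each ganglion were divided between RA (+) medium, which contains retinoic acid (RA), and RA (-) medium, which does not, and were cultured for 8 days. There were 4 animals, hence 4 RA-containing and 4 RA-free samples in pairs, and both groups carried the transgene, so that no sample without it enters the comparison. It addresses how the spheres differ when RA is left out, the condition that the title of the series describes as suited to the growth of these neuroblasts.

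Lysosomes are acidic organelles in which hydrolases break down proteins, glycans and lipids, and a proton pump, the vacuolar ATPase (V-ATPase), keeps them acidic. In autophagy a membrane grows around cytoplasm, closes into an autophagosome with the help of ubiquitin-like proteins attached to its lipids, and fuses with the lysosome. TFEB and TFE3 are held in the cytoplasm by phosphorylation when nutrients are plentiful and otherwise enter the nucleus, where they bind a motif in lysosomal promoters, the CLEAR element, whose core is the E-box CACGTG. MYC family proteins, MYCN among them, bind the same E-box with their partner MAX.

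Each sample was hybridised to 1 single-colour array. Levels are log2 processed signals relative to the array's 75th percentile, so they compare samples for 1 probe and not probes with each other. Changes are RA-free minus RA-containing on the log2 scale, each with the standard error (SE) of a limma fit with the animal as a block, and a gene is called when its p-value, adjusted over all genes tested, is under 0.05. The 75th percentile lay between 228 and 306 intensity units over the 8 arrays, and 48.5% to 55.3% of spots were well above background. The RA target genes Dhrs3, which changed by -5.00, and Rarb, the retinoic acid receptor beta, which changed by -1.77, were lower in the RA-free samples. All 13 sympathoadrenal markers were tested, among them Th, the enzyme that starts catecholamine synthesis, which was higher by 3.59, and Dbh, which makes noradrenaline, which was lower at -1.53.

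Stretches of 8 promoters are shown because the E-box in them is the sequence by which TFEB, TFE3 and MYC family proteins are known to recognise lysosomal genes. Sequences are from RefSeq on GRCm38.p6, 5′ to 3′ on the gene's strand and upstream of its start, with each CACGTG in capitals. Lamp1 is shown at chr8:13159080-13159160 and Mcoln1 at chr8:3500428-3500499 on the plus strand, Cln3 at chr7:126583332-126583405 and Ctsd at chr7:142387900-142388077 on the minus strand.
Lamp1: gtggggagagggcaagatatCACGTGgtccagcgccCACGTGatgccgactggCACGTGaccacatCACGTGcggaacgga
Mcoln1: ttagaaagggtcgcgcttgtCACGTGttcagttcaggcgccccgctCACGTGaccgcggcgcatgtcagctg
Cln3: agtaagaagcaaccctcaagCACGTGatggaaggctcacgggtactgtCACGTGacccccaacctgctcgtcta
Ctsd: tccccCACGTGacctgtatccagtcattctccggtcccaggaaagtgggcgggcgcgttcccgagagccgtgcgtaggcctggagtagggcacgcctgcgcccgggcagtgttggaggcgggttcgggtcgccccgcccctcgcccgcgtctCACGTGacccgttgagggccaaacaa
These 4 promoters hold several copies, 4 in Lamp1 and 2 in each of the others. Promoters with 1 copy are shown for Gaa at chr11:119267803-119267848, Naglu at chr11:101070001-101070046 and Glb1 at chr9:114401010-114401055, all on the plus strand, and for Atp6v1a at chr16:44139365-44139410 on the minus strand.
Gaa: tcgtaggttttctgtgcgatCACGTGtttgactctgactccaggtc
Naglu: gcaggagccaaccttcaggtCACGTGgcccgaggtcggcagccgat
Glb1: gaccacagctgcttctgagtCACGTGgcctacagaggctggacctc
Atp6v1a: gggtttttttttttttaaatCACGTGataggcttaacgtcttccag

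Promoter windows of 300 bases were matched for 36 of the 41 genes. No window was matched for Ctsb, Ctsh, Atp6v1h, Becn1 and Map1lc3a. The motif CACGTG, which reads the same on both strands, was in the window of 15 of the 36 genes (41.7%), against 8.09% of the 27025 genes in the table and 11.5% of the 10803 tested genes with a window. The longer form TCACGTG, which contains CACGTG and was searched on both strands, was in 12 genes (33.3%), against 4.29% and 6.82%. The CLEAR element is known as a motif of lysosomal promoters, so high shares in this list are not a result of these data. The 15 genes were Lamp1 with 4 copies, Cln3, Ctsa, Ctsd, Gla and Mcoln1 with 2 copies each, and Gaa, Naglu, Glb1, Ctsf, Ctsl, Atp6v0d1, Atp6v1a, Atg5 and Atg7 with 1. They include genes that were lower, higher and not called between the media. Of the genes called lower, 9 of 18 with a window held the motif (50%), and of the others 6 of 18 did (33.3%). The others include Ctss, which was not tested. Lamp1, with the most copies, was not called.

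In the medium without RA, 20 of the 39 tested genes were lower (51.3%), where 28.2% of all tested genes were called lower. Gla and Atg5 were higher (5.13%), where 36.1% of all genes were called higher, and 17 genes were not called. Over all genes 64.3% were called, and 56.1% of those calls were increases, a share of 46.3% to 65.9% under the other scalings tried. The median change of the 39 genes was -0.28, against 0.07 for all genes, and the changes ran from -1.64 to 0.31. Cathepsins B, F and L, the glycogen-degrading enzyme Gaa, the proton pump subunit Atp6v0a1 and the autophagosome protein Wipi1 were each lower by at least 1 on the log2 scale, 6 genes where 10.6% of all genes were called and lower by that much. The 20 genes called lower had a median change of -0.81, and each was lower in 4 of 4 animals. The call was made on these same animals and favours such agreement, which is therefore no separate support. In 18 of the 20 genes the 2 groups of samples did not overlap, and the exceptions were Hexa and Psap. With Neu1, which was not called, 19 of the 39 genes were without overlap and lower, against 23.8% of all genes, and none was without overlap and higher, against 29.5%. Arrays were loaded from total RNA of whole spheres, so fewer cells of a type and less RNA per cell cannot be told apart. Scaling to the E1A spike-in probes, which raised the median of all genes from 0.07 to 0.26, left 10 of the 39 genes lower. All 10 were among the 20, and 13.6% of all genes were lower under this scaling. The median of the 39 genes was then -0.093. The mean log2 signal of the spike-in probes varied within each medium, from 9.57 to 10.25 with RA and from 9.22 to 10.31 without it. Over all genes 5403 were called under this scaling, in place of 8705, and 1841 were called lower, in place of 3820. The part of the spike-in spread in the calls lost, here and below, was not tested.

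**Figure D1:**
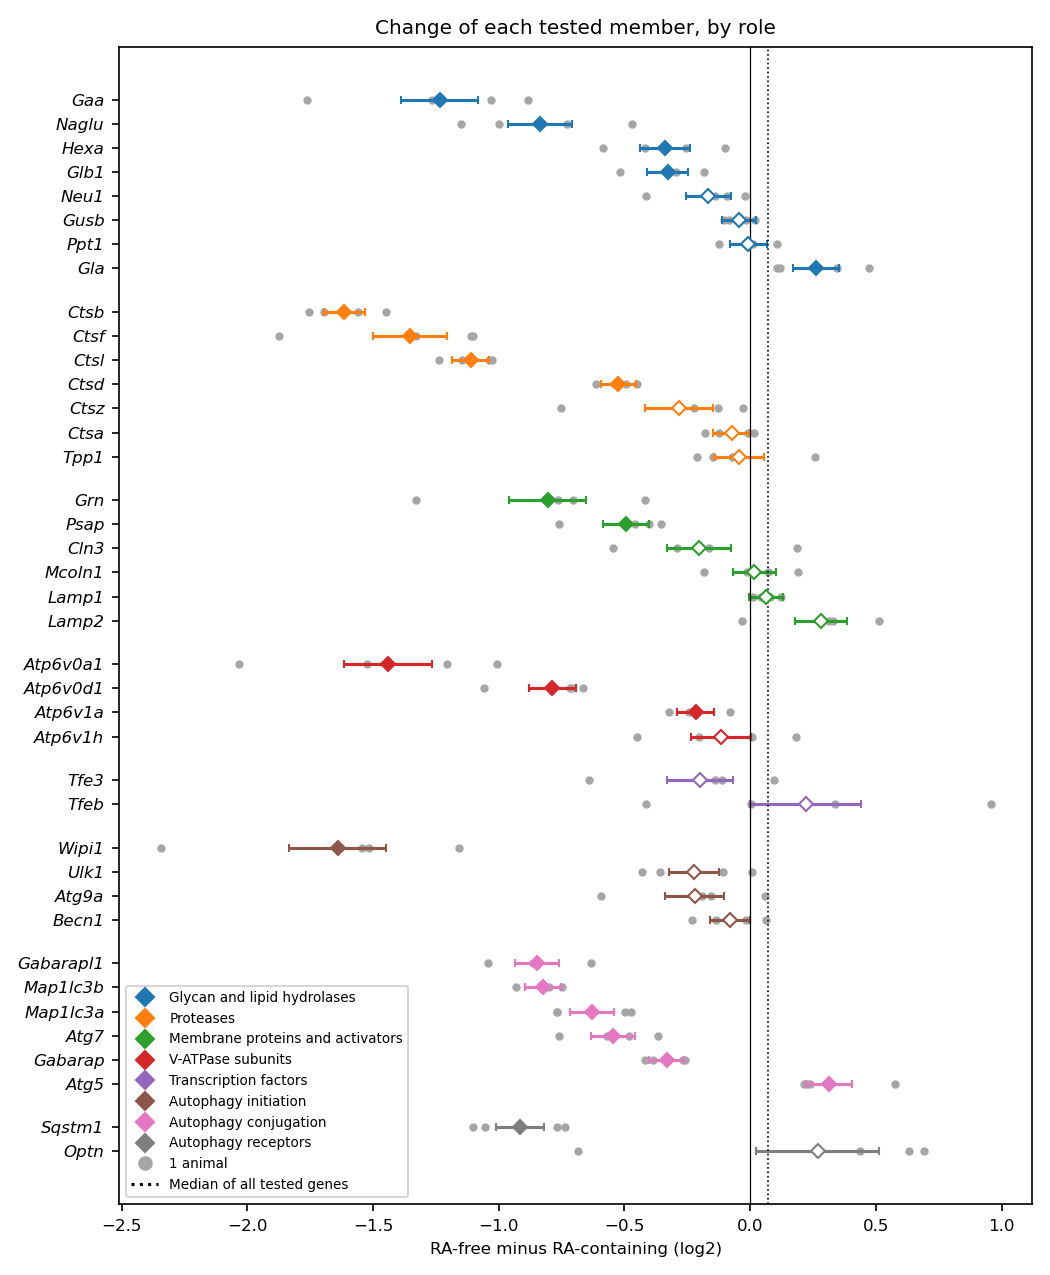
Change of each of the 39 tested genes (RA-free minus RA-containing, log2), grouped by role. Diamonds with bars are the limma estimate ± SE, filled where called and open where not, grey points are the 4 animals, and the dotted line is the median of all tested genes at 0.07. Points lie left of 0 for all 4 animals in each of the 20 genes called lower, a call made on the same animals.

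Counts by role are to be read against the 28.2% of all genes called lower and the 36.1% called higher. Among the 8 enzymes that act on glycans, lipids and lipid-linked proteins, 4 fell, 1 rose and 3 were not called, with a median change of -0.25. Gaa (NM_008064), the acid alpha-glucosidase that degrades glycogen in the lysosome, stood at 4.89, 4.78, 4.97 and 4.74 on the RA-containing arrays of animals 1 to 4. Its RA-free levels were 4.01, 3.51, 3.21 and 3.70. All RA-free levels of Gaa were below all RA-containing ones, with animal 3 the lowest and animal 1 the highest of the RA-free samples. Gaa fell 2.35-fold, a change of -1.24 (SE 0.15, adjusted p = 0.0011), and its other probe gave -1.43. Naglu, which removes terminal sugars from heparan sulfate, fell by 0.84 (SE 0.13, adjusted p = 0.0023). The smaller decreases were in Hexa, the alpha subunit of beta-hexosaminidase, at -0.34 (adjusted p = 0.0266) and Glb1, the lysosomal beta-galactosidase, at -0.33 (adjusted p = 0.0152). Hexa lost its call without animal 1, 2 or 3 and Glb1 without animal 2 or 4, with adjusted p-values from 0.0539 to 0.0961 in these fits; Hexa was called in 9 of 14 settings and Glb1 in 11. Gla, alpha-galactosidase A, was higher by 0.26 (SE 0.09, adjusted p = 0.0491) and in all 4 animals, but was called in 4 of 14 settings and changed sign to -0.14 with normexp background correction and quantile normalization and to -0.17 with quantile normalization of the processed signal. Neu1, a sialidase, Gusb, the beta-glucuronidase, and Ppt1, which removes palmitate from proteins, were not called at -0.17, -0.05 and -0.01.

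The cathepsins held the largest changes among the proteases, of which 4 of the 7 tested fell and none rose, with a median of -0.52. Ctsb (NM_007798), a cysteine protease, stood at 5.84, 5.81, 5.83 and 5.70 on the RA-containing arrays and at 4.09, 4.36, 4.14 and 4.15 on the RA-free arrays of animals 1 to 4. Each group lay within a narrow band and the bands were far apart. Ctsb fell 3.06-fold, a change of -1.61 (SE 0.08, adjusted p = 8.76e-05). Ctsf (NM_019861), another cysteine protease, was at 0.86, 0.72, 0.92 and 0.73 with RA and at -0.25, -0.38, -0.96 and -0.60 without it. The groups did not overlap, and animal 3 had both the highest level with RA and the lowest without. Its change was -1.35 (SE 0.15, adjusted p = 6.77e-04), or 2.56-fold. Ctsl (NM_009984), also a cysteine protease, was at 4.84, 5.02, 5.04 and 4.95 with RA and at 3.60, 3.87, 4.00 and 3.92 without it. Here animal 1 was lowest in both media, and the fall of 1.11 on the log2 scale (SE 0.07, adjusted p = 1.55e-04) was close to even over the animals.

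Ctsd (NM_009983), the main aspartic protease of lysosomes, stood at 4.31, 4.36, 4.46 and 4.26 with RA and at 3.81, 3.91, 3.85 and 3.72 without it. The groups did not overlap, although the distance was smaller than in Ctsb and Ctsl. Ctsd fell by 0.52 (SE 0.07, adjusted p = 0.00136), its other probe gave -0.61, and with spike-in scaling it changed by -0.33 and was not called. Ctsz, which trims residues from the ends of proteins, was not called at -0.28 (SE 0.13, adjusted p = 0.111), with all 4 animals lower. Ctsa, a carboxypeptidase that also protects Neu1 and Glb1 from breakdown, and Tpp1, a tripeptidyl peptidase, were not called at -0.07 and -0.04. Ctsa was called lower, at -0.44 (adjusted p = 3.98e-04) and -0.39 (adjusted p = 0.0054), in the settings with quantile normalization. Ctss, a cathepsin of antigen-presenting cells, was well above background on 0 of 8 arrays, with readings of -6.07, -5.51, -4.59 and -5.88 with RA and -6.05, -4.79, -5.92 and -5.73 without it. Ctsh, an aminopeptidase, was above background on 1 array, RA-free array 3. Ctss and Ctsh were therefore not tested.

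**Figure D2:**
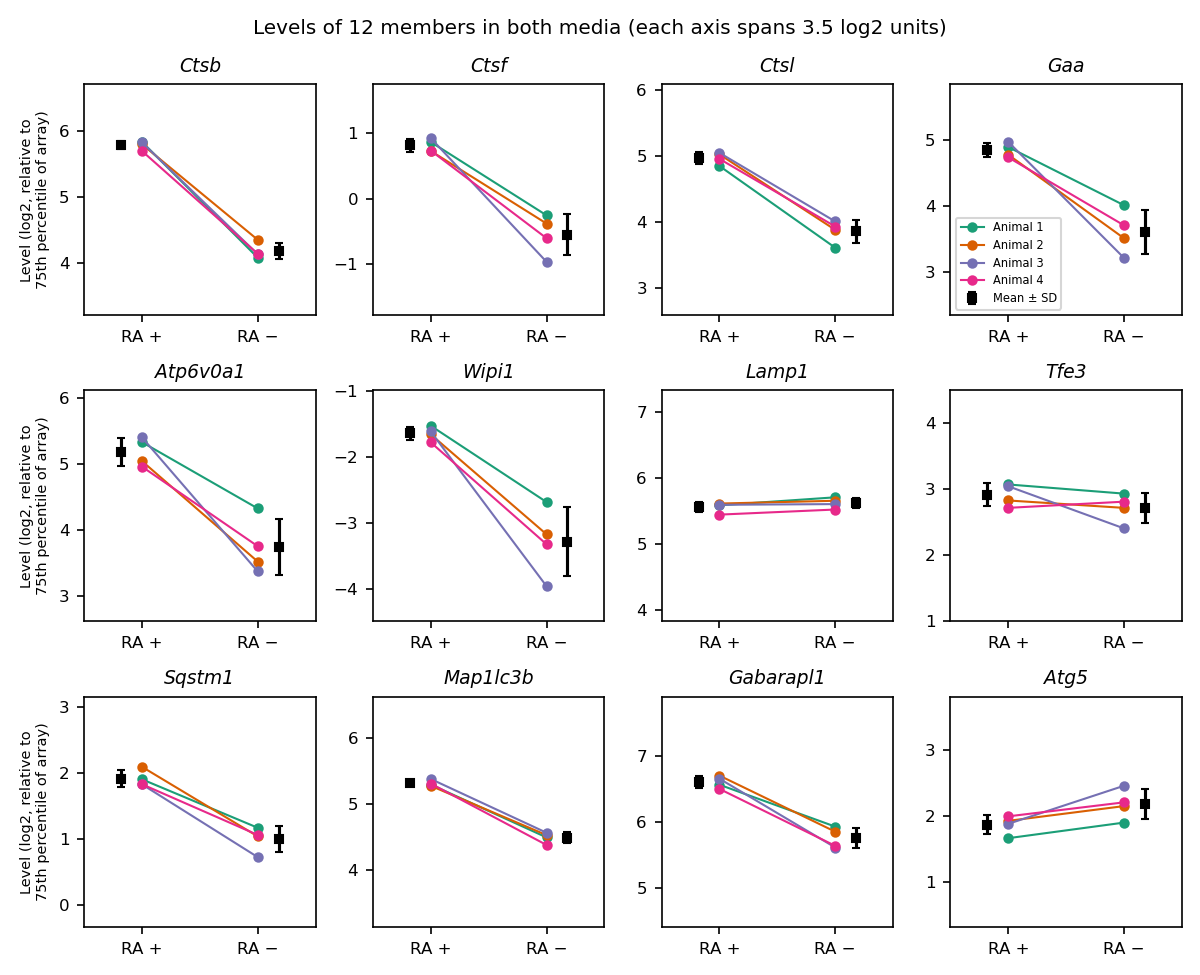
Levels of 12 genes (log2, with each array's 75th percentile at 0) in RA-containing (RA +) and RA-free (RA −) samples, each line 1 animal, with the mean ± SD of 4 samples beside each group. Each axis spans the same 3.5 log2 units: lines for Ctsb, Ctsf, Ctsl, Gaa, Atp6v0a1 and Wipi1 run steeply down, and those for Lamp1 stay close to level under this scaling, whereas quantile normalization gave it -0.31.

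Membrane proteins and activators of hydrolases were divided, with 2 of 6 lower and none higher. Their median of -0.094 became 0.097 with spike-in scaling, where that of all genes was 0.26. Grn, which encodes progranulin, the precursor of lysosomal granulins, fell by 0.81 (SE 0.15, adjusted p = 0.00536), and Psap, the precursor of the saposins that help enzymes reach their lipids, fell by 0.49 (SE 0.09, adjusted p = 0.00513). Both lost their call with spike-in scaling, at -0.61 and -0.30. Lamp1 (NM_010684), a major glycoprotein of the lysosomal membrane, was at 5.59, 5.62, 5.60 and 5.45 with RA and at 5.71, 5.66, 5.61 and 5.53 without it. The levels overlapped, and array 4 was the lowest of each medium. Lamp1 was not called, at 0.06 (SE 0.07, adjusted p = 0.444). It was called lower, at -0.31, with normexp correction and quantile normalization (adjusted p = 0.00306) and with quantile normalization alone (adjusted p = 0.0116). Mcoln1, a cation channel that releases calcium from lysosomes, was not called at 0.02 (SE 0.09). Cln3, a membrane protein whose loss causes a neuronal storage disease, had 3 probes at -0.20, -0.21 and -0.21, of which the brightest, used here, was not called (adjusted p = 0.211), while 1 of the others passed at an adjusted p over all probes of 0.0405. Over all probes, 26.8% were called lower.

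Lamp2, the partner of Lamp1 in the lysosomal membrane, is made in several splice forms that differ at the end of the protein, and its 2 probes carried different transcript accessions. The brighter probe (NM_010685) stood at 1.37, 1.44, 1.49 and 1.59 on the RA-containing arrays and at 1.34, 1.76, 2.01 and 1.92 on the RA-free arrays. It was higher without RA in animals 2, 3 and 4 and nearly level in animal 1, and was not called, at 0.28 (SE 0.10, adjusted p = 0.0584). Without animal 1 its change was 0.39 and was called (adjusted p = 0.0209), as it was among probes detected on all 8 arrays (adjusted p = 0.0421). The other probe (NM_001017959) stood at 0.31, 0.44, 0.43 and 0.51 with RA and at -0.39, 0.10, 0.15 and 0.07 without it. It was lower without RA in all 4 animals, with no overlap, at -0.44 (SE 0.10, adjusted p over all probes of 0.00902). The change of the brighter probe minus that of the other was 0.72 ± 0.07 (SD, n = 4 animals) and was positive in 4 of 4 animals. An exact two-sided sign-flip permutation test gave p = 0.125, the smallest value that 4 animals allow, and this comparison was chosen after the values were seen.

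**Figure D3:**
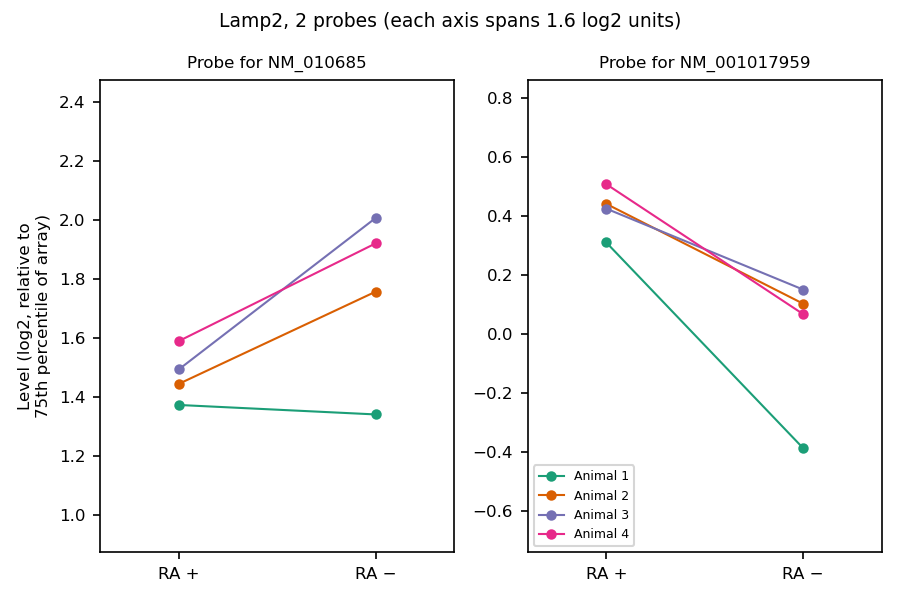
Levels of the 2 Lamp2 probes (log2, with each array's 75th percentile at 0) in RA-containing (RA +) and RA-free (RA −) samples, each line 1 animal and each panel 1 probe on its own axis of equal span. Lines of the probe for NM_010685 rise in 3 animals and those of the probe for NM_001017959 fall in all 4.

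Subunits of the V-ATPase fell in 3 of 4 cases, with a median of -0.50. Atp6v0a1 (NM_001243051), which lies in the membrane sector of the pump and directs it to its compartment, stood at 5.33, 5.04, 5.40 and 4.96 with RA and at 4.32, 3.52, 3.37 and 3.75 without it. No RA-free level reached the RA-containing ones, and animal 1 kept the highest RA-free level. Atp6v0a1 fell 2.72-fold, a change of -1.44 (SE 0.18, adjusted p = 0.00101). Atp6v0d1, also in the membrane sector, fell by 0.79 (SE 0.09, adjusted p = 8.96e-04) and lost its call with spike-in scaling at -0.60 (adjusted p = 0.0632). Atp6v1a, the catalytic subunit that splits ATP, fell by 0.22 (SE 0.07, adjusted p = 0.0445), was called in 7 of 14 settings and lost the call when any 1 animal was left out. Atp6v1h, a regulatory subunit of the cytosolic sector, was not called at -0.12 (SE 0.12).

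The transcription factors were not called. Tfeb (NM_001161722) stood at -3.13, -3.40, -3.77 and -3.67 with RA and at -3.12, -3.81, -2.81 and -3.34 without it. The groups overlapped, and the animals went different ways, from lower in animal 2 to higher in animals 3 and 4. Its change was 0.22 (SE 0.22, adjusted p = 0.416), and -0.025 without animal 3. Tfe3 (NM_172472) stood at 3.08, 2.83, 3.05 and 2.72 with RA and at 2.94, 2.72, 2.41 and 2.82 without it. It was lower without RA in animals 1, 2 and 3 and higher in animal 4, with overlapping groups. The change of Tfe3 was -0.20 (SE 0.13, adjusted p = 0.226), and its other probe gave -0.33 with an adjusted p over all probes of 0.0318. Transcript levels do not measure where in the cell these factors lie, which is how their activity is known to be set.

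Of the 4 genes that start autophagosomes, 1 fell and 3 were not called. Wipi1 (NM_145940), which binds phosphoinositides on the growing membrane, stood at -1.53, -1.66, -1.62 and -1.78 with RA and at -2.69, -3.18, -3.96 and -3.33 without it. The RA-containing levels were close together, and the RA-free ones were all lower and spread over more than 1 log2 unit, with animal 3 the lowest. Its change was -1.64 (SE 0.19, adjusted p = 9.07e-04), or 3.12-fold. The signal was dim, being above background on 4 of 4 RA-containing and 3 of 4 RA-free arrays, and the size was smaller with normexp correction of median signals and quantile normalization, at -0.66 (adjusted p = 4.64e-05). The other Wipi1 probe, above background on 3 and 1 arrays, gave -0.69 and was not called (adjusted p over all probes of 0.11).

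Ulk1 (NM_009469), the kinase that starts autophagy, stood at 4.61, 4.61, 4.50 and 4.54 with RA and at 4.62, 4.17, 4.14 and 4.43 without it. Animals 2, 3 and 4 were lower without RA and animal 1 was level, and Ulk1 was not called at -0.22 (SE 0.10, adjusted p = 0.0957). With 3 of the other scalings it was called lower, at -0.34 to -0.48. Becn1 (NM_019584), the beclin subunit of the lipid kinase complex of autophagy, stood at 0.41, 0.58, 0.22 and 0.36 with RA and at 0.40, 0.45, 0.28 and 0.13 without it. These levels overlapped almost completely, and Becn1 was called in none of the 14 settings, with a change of -0.08 (SE 0.08, adjusted p = 0.414). Atg9a, which moves lipids between the leaflets of the growing membrane, was not called at -0.22 (SE 0.12, adjusted p = 0.15).

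All 6 genes of the conjugation step were called, 5 lower and 1 higher, where 64.3% of all genes were called, 28.2% lower and 36.1% higher. Their median was -0.59, and with spike-in scaling 2 were lower and 0 higher. Map1lc3b (NM_026160), the LC3 protein most used as an autophagosome marker, stood at 5.29, 5.27, 5.38 and 5.31 with RA and at 4.49, 4.52, 4.56 and 4.38 without it. The 4 animals were alike, and the fall of 0.82 on the log2 scale (SE 0.07, adjusted p = 3.12e-04) was 1.77-fold. Map1lc3a (NM_025735), its close relative, was at 2.63, 2.69, 2.71 and 2.55 with RA and at 2.13, 1.92, 1.94 and 2.08 without it. It too showed no overlap, with a change of -0.63 (SE 0.09, adjusted p = 0.00168) that was not called with spike-in scaling (-0.44, adjusted p = 0.188). Gabarapl1 and Gabarap, of the sister family that acts in autophagosome closure, fell by 0.85 (SE 0.09, adjusted p = 5.94e-04) and 0.33 (SE 0.07, adjusted p = 0.00835). Atg7, the enzyme that activates these ubiquitin-like proteins, fell by 0.55 (SE 0.09, adjusted p = 0.00295), with its other probe at -0.36. Gabarap and Atg7 also lost their calls with spike-in scaling, at -0.14 and -0.35. Atg5, part of the complex that attaches LC3 to lipid, rose by 0.31 (SE 0.09, adjusted p = 0.0262), with RA-containing levels of 1.67 to 2.00 and RA-free levels of 1.90 to 2.46. Atg5 was higher in 4 of 4 animals and in each scaling, yet its groups overlapped and it was called in 6 of 14 settings. Leaving out animal 1, 2 or 4 ended its call, with adjusted p-values of 0.0545 to 0.0611.

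Of the receptors that bind cargo to the autophagosome, Sqstm1 (NM_011018), the p62 protein that is itself degraded by autophagy, stood at 1.91, 2.10, 1.83 and 1.83 with RA and at 1.17, 1.04, 0.73 and 1.06 without it. All 4 animals were lower without RA, with a wide gap between the groups. Sqstm1 fell by 0.92 (SE 0.09, adjusted p = 5.75e-04), or 1.89-fold. Optn, the receptor optineurin, was dim, above background on 2 of 4 RA-containing and 3 of 4 RA-free arrays, and was not called at 0.27 (SE 0.24, adjusted p = 0.372). Animal 4 went against the other animals, and without it the change of Optn was 0.59 and was called (adjusted p = 0.00898).

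The decreases were present in each of the 4 animals, with different sizes. The median change of the 39 genes was -0.26, -0.32, -0.55 and -0.29 in animals 1 to 4, while that of all genes was between 0.05 and 0.09 in each. Of the 39 genes 32, 29, 30 and 30 were lower without RA in these animals. Over the 20 genes called lower, a call made on these same animals, the medians were -0.57, -0.81, -0.91 and -0.72. Animal 3 thus had the largest changes and animal 1 the smallest. RA-free array 1 also lay nearer to the RA-containing arrays on the first principal component of all genes, at 42.3 against 59.5 to 66.2 for the other RA-free arrays. Its part in the smaller changes was not tested. Leaving out animal 1, 2, 3 or 4 left 18, 17, 18 and 18 of the 39 genes called lower, where 26.1%, 24.1%, 26.5% and 24.3% of all genes were. These genes were all among the 20. Over all genes 3533, 3263, 3582 and 3284 were called lower in these fits, in place of 3820.

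A wider set of 136 other genes of lysosomes and autophagy was measured in the same way, of which 127 were tested. In this set 53 genes were lower (41.7%, against 28.2% of all genes) and 14 higher (11%, against 36.1%), with a median of -0.15 that became 0.038 with spike-in scaling. Under that scaling 9 were lower, a smaller share than the 13.6% of all genes, and 5 were higher, where 26.3% of all genes were. The larger share of called decreases in this set was therefore not kept. The median of the set stayed below that of all genes, which was 0.07 in the main fit and 0.26 with spike-in scaling. Other hydrolases had 15 of 23 lower, led by Ids, which acts on heparan and dermatan sulfate, at -1.42, Ctsk, a collagen-degrading cathepsin, at -0.96 and Smpd1, the acid sphingomyelinase, at -0.81. The exception among them was Sgsh, a sulfamidase of heparan sulfate degradation, which was called higher at 0.58 with 1 probe while its other probe gave -0.75. Other membrane and intralysosomal proteins had 7 of 17 lower, among them Abcb9, a peptide transporter of the lysosomal membrane, at -2.67 or 6.37-fold, Ostm1, the partner of a lysosomal chloride transporter, at -0.70, and Gm2a, the ganglioside activator, at -0.65 with its other probe at -1.91. Their 1 increase was Cd63 at 0.28, which became -0.14 with normexp correction and quantile normalization.

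Further V-ATPase subunits were lower in 7 of 14 cases, with Atp6v1g2, a neuronal form of a stalk subunit, at -1.51 and the accessory protein Atp6ap1 at -0.84, whereas Atp6v0e, a small membrane subunit, was higher by 0.84. Genes that sort proteins to the lysosome were mixed, with 6 of 20 lower and 4 higher, among them Ap3d1 of an adaptor complex at -0.53, Vps18 of the tethering complexes at -0.48 and its partner Vps16 at 0.46. Other autophagy genes were lower in 16 of 31 cases, with Tecpr1, which links autophagosomes to lysosomes, at -1.39, Calcoco1 at -1.06 and the lipid transfer protein Atg2a at -0.79. Atg3, the enzyme that passes LC3 to lipid, was their 1 increase, at 0.38.

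Regulators of nutrient signalling had 2 of 22 genes lower (9.09%, against 28.2% of all genes) and 6 higher (27.3%, against 36.1%). Prkaa2, a catalytic subunit of the energy sensor AMPK, fell by 1.01 and Foxo1, a transcription factor of fasting responses, fell by 0.94. Rheb, the GTPase that activates mTORC1, a kinase complex that phosphorylates TFEB, rose by 0.52. The other increases, named after their values were seen, were Fnip1 at 0.46 and 4 subunits of the Ragulator complex, which anchors mTORC1 signalling at the lysosome: Lamtor3 at 0.41, Lamtor2 at 0.37, Lamtor5 at 0.33 and Lamtor1 at 0.28. These 4 were positive in every setting but called in 11, 13, 10 and 8 of 14, and the last subunit, Lamtor4, was not called at -0.04.

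**Figure D4:**
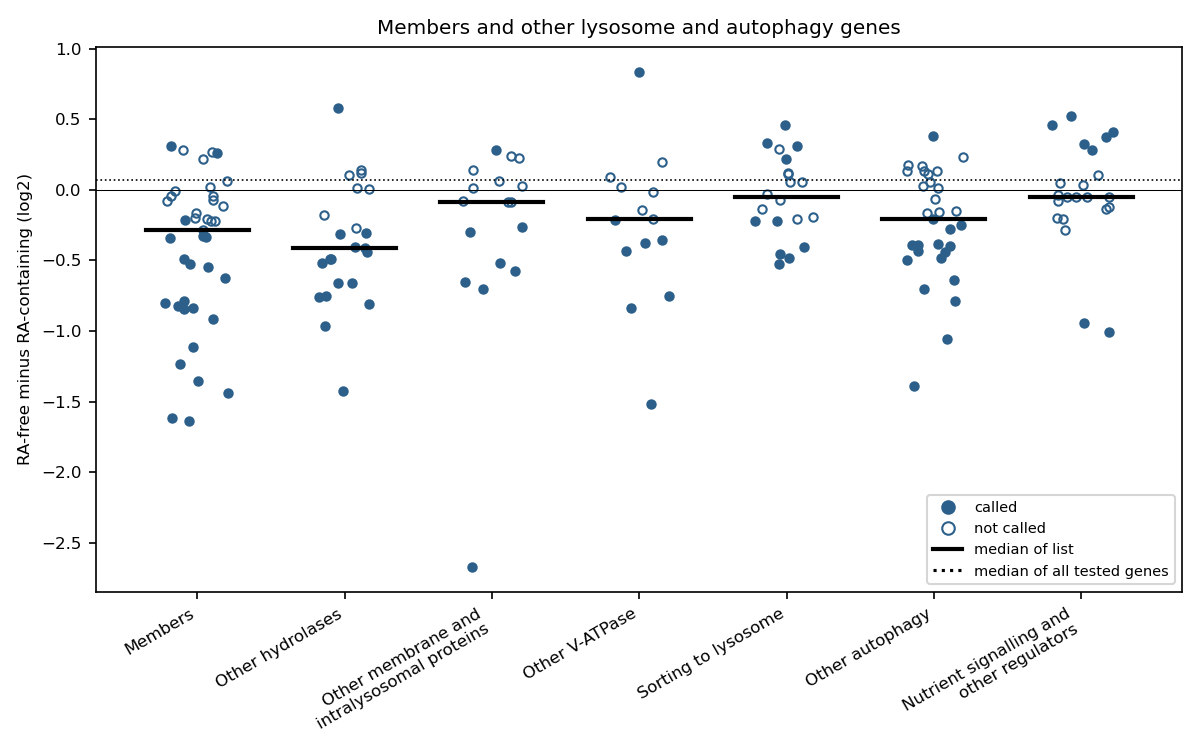
Change of each tested gene (RA-free minus RA-containing, log2) in the 39 genes described here and in 6 lists of other lysosome and autophagy genes, filled where called and open where not. Black bars are list medians and the dotted line is the median of all tested genes at 0.07. With spike-in scaling the medians of the membrane, sorting and regulator lists lie above 0, where that of all tested genes is 0.26.

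Lysosomal genes are rich in macrophages and glia, so markers of other cell types were measured beside them. Of 21 macrophage and immune markers 20 had a probe and 13 were not above background on any array, among them Ptprc, Cd14, Lyz2, Cx3cr1, Tyrobp and C1qa. Their mean scaled signal, in units of the array's 75th percentile, was 0.975 to 1.2 with RA and 0.757 to 0.874 without it. In this list 7 genes were tested and 3 were lower (42.9%, against 28.2% of all genes). Itgam was at -0.51, with its other probe at -0.16. Aif1 was at least 1.49-fold and Adgre1 at least 1.44-fold lower, since no RA-free array had either well above background. Each bound sets the mean log2 level with RA against the lowest signal of any probe well above background on the RA-free arrays. Aif1 and Adgre1 passed the filter on dim probes through the RA-containing arrays alone, which favours a decrease. Without that filter 20 of these markers were tested, and 1 was higher and 3 lower, where 23.5% and 17.2% of all genes were. Their median was then 0.27, against 0.18 for all genes.

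Counts in the marker lists that follow are to be read against the 28.2% of all genes called lower and the 36.1% called higher. Schwann and satellite glia markers were lower in 4 of 9 tested cases, led by Prx at -1.34, Fabp7 at -0.99 and Pmp22 at -0.79. Their mean signal was 3.62 to 4.17 with RA and 2.06 to 2.72 without it. Erbb3, a receptor of Schwann cells, was not above background on any array. Fibroblast markers had 4 lower and 1 higher of 8, with Fap at -1.74, Dcn at least 1.64-fold lower, Postn at -1.11 and Col1a2 at 1.03, and mean signals of 0.842 to 1.17 with RA and 0.821 to 1.19 without it. Endothelial markers had 1 of 6 lower, Pecam1 at -0.34, and signals of 1.72 to 2.08 and 1.96 to 2.35, and adrenal cortex markers had 2 of 5 higher and signals of 2.2 to 2.9 and 2.76 to 3.49. The sympathoadrenal markers had 5 higher and 4 lower of 13, with signals of 40.6 to 49.5 with RA and 45.2 to 53.7 without it. Their shares of 38.5% higher and 30.8% lower were near those of all genes. The higher ones were Th, Gata2 at 2.12, Isl1 at 2.00, Slc18a2 at 0.75 and Ddc at 0.48. The lower ones were Dbh, Chga at -0.998, Hand2 at -0.39 and Chgb at -0.34. These markers are named after their values were seen. The macrophage and glial signals were lower on every RA-free array than on any RA-containing one, as were 19 of the 39 lysosome and autophagy genes, and their part in those changes was not tested.

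Ctsb, Ctsf, Ctsl, Gaa, Naglu, Atp6v0a1, Sqstm1, Map1lc3b, Gabarapl1 and Wipi1 were called lower in each of the 14 settings that gave them a value. All 20 genes called lower remained so with normexp and quantile normalization, with quantile normalization of the processed signal, with the 75th percentile of detected probes and in the authors' deposited table. With these first 3 settings 26, 25 and 24 of the 39 genes were lower, where 33.4%, 33% and 33.9% of all genes were, and the median of the 39 genes was -0.40, -0.39 and -0.40. The genes added were Lamp1, Ctsa, Ctsz, Neu1, Ulk1 and Tfe3 in the first setting, the same without Tfe3 in the second, and Ctsz, Neu1, Ulk1 and Atg9a in the third. It was below 0 and below the median of all genes in each scaling. Of all genes 29% were called lower in the deposited table, 17.2% without a filter on dim probes, 27.2% among probes detected on all 8 arrays, 26.3% without the block and 27.9% with means over probes. Of the genes described here, 20 of 39, 18 of 41, 19 of 37, 19 of 39 and 20 of 39 tested were lower in these settings. Increases were rarer than in the background in every setting, with at most 3 of these genes. Of all genes 30%, 29.2%, 29.3% and 26.3% were called higher with normexp and quantile normalization, quantile normalization, the 75th percentile of detected probes and spike-in scaling. This share was 35% in the deposited table, 23.5% without a filter, 40% among probes detected on all arrays, 33% without the block, 35.9% with means over probes, and 32.7%, 30.2%, 34.4% and 30.1% without animals 1 to 4. Over all probes it was 36.6%, and of the 39 genes those with several probes had none called higher.

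**Figure D5:**
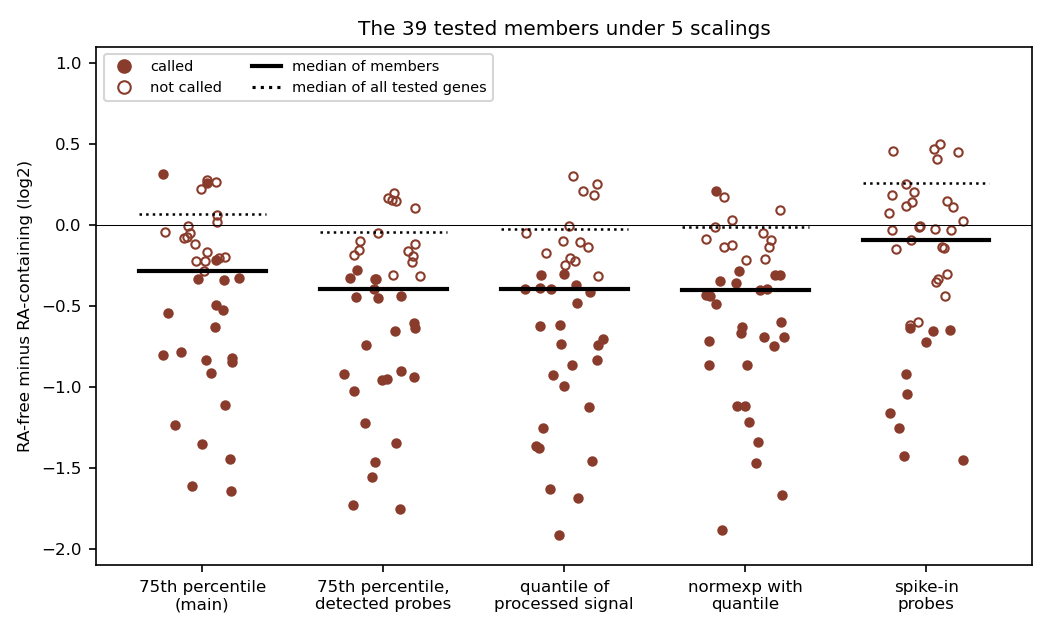
Change of the 39 tested genes (RA-free minus RA-containing, log2) under 5 scalings of the arrays, filled where called and open where not. Black bars are the medians of the 39 genes, -0.28 in the first column and -0.093 with spike-in probes, and dotted lines are the medians of all tested genes, 0.07 and 0.26 in the same columns.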

How the data were processed

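Spot intensities of the 8 arrays (Agilent design 028005, annotation on mm9, 1 slide, 1 scan) were extracted by the authors with Feature Extraction 11.5.1.1, which subtracted background and detrended within each array, per the file headers. A deposited table gives log2 values, each probe centred, whose differences matched the scanner values (lowest correlation 0.9999, 99.5% of probes within 0.01); its exact scaling is not given in the sources used here. Per the deposited flags, no non-control spot was saturated, and outlier spots were left out.

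Processed intensities were taken to log2, the 75th percentile of each array's non-control spots was subtracted, and spots of a probe were averaged. Through RefSeq accessions, 27206 probes matched 20641 symbols and 28411 matched none. Probes well above background on at least 4 of 8 arrays were tested, and the brightest per gene was used. The fit was limma 3.58.1 in R 4.3.3, two-sided, with Benjamini-Hochberg adjustment over 13539 genes and tested on simulated data. The number of arrays limits its precision.

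The animal was a fixed block because the series' design says that each ganglion's cells were divided between the media. Same-animal deviations correlated at 0.52, 0.30, 0.19 and 0.33.

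Alternatives were 3 other normalizations of the processed signal, normexp (offset 50) on median signals with quantile normalization, the deposited table, filters on dim probes, no block, means over probes, and each animal left out. Values were given per sample for called genes with a change of at least 1 and for Tfeb, Tfe3, Lamp1, Lamp2, Ctsd, Ctss, Sqstm1, Map1lc3a, Map1lc3b, Ulk1 and Becn1, and up to 3 called genes with the largest changes were named per other list. The genes, lists and rules were chosen with earlier results of these data known. Lists are described by counts and medians, to be read against the shares over all genes, with no test of lists.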

Additional observations from a re-analysis of the deposited data

Results flagged for a closer look

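The level of Lamp1 in RA-containing sample 4 stood apart from its group, at 5.45 against 5.59 to 5.62 in the other RA-containing samples. Of the 78 groups of 4 levels looked at, over 39 genes and both media, it was the 1 group with a sample this far from the others, and chance sets off about 1 group in 20.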

How the results depend on the processing

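All 20 decreases were kept when genes were averaged over probes, 19 when only probes detected on all 8 arrays were used, 18 without a filter on dim probes and 10 with spike-in scaling, which took the median of the 39 genes to -0.093. The count of higher genes, 2, was 1 with normexp and quantile normalization and in the authors' deposited table, and 0 with quantile normalization, the 75th percentile of detected probes, spike-in scaling or no filter on dim probes; without 1 animal it ranged from 0 to 2. Without the replicate block, that is ignoring the pairing by animal, 19 genes were lower and 0 higher, and 8022 of all genes were called in place of 8705.

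For the 127 other genes, 14 higher became 8 with normexp and quantile normalization, 6 with quantile normalization and 5 with spike-in scaling, and 8 to 14 without 1 animal, the lowest without animal 4. Their 53 decreases became 9 with spike-in scaling. Their median of -0.15 was -0.23, -0.26 and -0.26 with normexp and quantile normalization, quantile normalization and the 75th percentile of detected probes. With spike-in scaling it was 0.038, the opposite sign, where the median of all genes was 0.26. Lamp1 changed sign to -0.31 with normexp and quantile normalization and to -0.31 with quantile normalization, and Gla to -0.14 and -0.17. The cause of these shifts was not tested, except that spike-in scaling and the 75th percentile of detected probes move all genes together. The median of all genes moved by 0.19 with spike-in scaling and by -0.11 with the 75th percentile of detected probes. Quantile normalization does not move all genes together. With it the median of all genes moved by -0.08 after normexp correction and by -0.09 without that correction. Lamp1, at 0.06 in the main fit, and Gla, at 0.26, fell by more. Naglu, at -0.84 in the main fit, was at -0.63 with normexp and quantile normalization and at -0.84 with quantile normalization. Wipi1 and Optn had no value with probes detected on all 8 arrays. Probes near background, as for Wipi1, Optn and Tfeb, give less reliable sizes.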

Other observations

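The neighbours of Gla on the chromosome, Rpl36a, a ribosomal protein gene, and Hnrnph2, which encodes an RNA-binding protein, were both higher without RA, by 0.74 (SE 0.07, adjusted p = 4.16e-04) and 0.41 (SE 0.09, adjusted p = 0.00826) in limma's fit, and in 4 of 4 animals. Of all tested genes 36.1% were called higher. Both neighbours were looked up after the values of Gla were seen.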
